A study of Homo sapiens with 9 samples.

Results

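The 49 genes described here encode collagen chains, enzymes and a chaperone that process collagen, laminins and other matrix proteins, a matrix protease with its inhibitors, integrin chains and other receptors of the cell surface. They came from a list written with earlier results of these data known. Every Ago-HITS-CLIP peak whose midpoint lay in the body of one of them, on the strand of the gene, was taken. This gave 178 of 8460 peaks, which were 72 of the 3450 miR-342-3p peaks (2.09%, 95% CI 1.66–2.62%, Wilson) and 106 of the 5010 miR-342-5p peaks (2.12%, CI 1.75–2.55%). At least 1 peak lay on 36 of the 49 genes.

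Ago-HITS-CLIP fixes Argonaute to its bound RNA with UV light, pulls the complexes down with an antibody and sequences the pieces of RNA that come with them. MDA-MB-231HM, a highly metastatic variant of the triple-negative breast cancer line MDA-MB-231, was transfected for 48 h with 20 nM of a mimic of either miR-342 strand or of a negative control mimic, with 3 libraries for each mimic and 9 in all. The deposited lists hold peaks called against the negative control, 1 list per miR-342 strand, with the 3 libraries merged, so there is no value per library, no SD can be given, and depth is unknown. A score, which stands for reads above background, is 5 or higher for every peak. Both lists were called against the same control libraries. The cells were of 1 line, and at this dose the mimic came on top of the cells' own miRNAs. The tests and intervals below count peaks, cover counting error only, and treat peaks as independent although peaks of 1 gene are not.

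The extracellular matrix surrounds and anchors cells. Collagens are hydroxylated on proline and lysine in the endoplasmic reticulum and crosslinked outside the cell by lysyl oxidases, laminins assemble from an alpha, a beta and a gamma chain into basement membranes, and integrins, pairs of an alpha and a beta chain, hold cells to these proteins and signal into the cell. Beta integrins, laminins, fibrillins and agrin share cysteine-rich repeats, so their coding sequences carry many cysteine codons. A miRNA guides Argonaute to RNA mainly through its seed, bases 2 to 8, and the best-known sites pair with the seed in a 3′UTR.

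The mature sequences (RefSeq, GRCh38.p14) differ in their seeds, which are in capitals, and so call for different letters in a target.
hsa-miR-342-3p: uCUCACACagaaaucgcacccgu
hsa-miR-342-5p: aGGGGUGCuaucugugauuga
A seed site here is an 8mer or a 7mer within 50 nt of a summit, the highest point of a peak, in the genomic sequence of the strand that the peak lies on, introns included. The 8mer of miR-342-3p was GUGUGAGA and the 7mers were GUGUGAG and UGUGAGA. Those of miR-342-5p were GCACCCCA, GCACCCC and CACCCCA. The core shared by the words of each mimic, UGUGAG or CACCCC, is called a 6mer.

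The miR-342-3p sites below lay in the coding sequences of receptors and matrix proteins. Each stretch has 30 nt of the RNA strand from GRCh37 (hg19), with the site in capitals.
ITGB1 miR-342-3p peak 671, chr10:33200555-33200584, minus strand: aagugucguguGUGUGAGugcaaccccaac
ITGB1 miR-342-3p peak 222, chr10:33200402-33200431, minus strand: caagggcaaacGUGUGAGAugugucagacc
ITGB5 miR-342-3p peak 197, chr3:124515452-124515481, minus strand: gucugcggccuGUGUGAGugcagccccggc
ITGB5 miR-342-3p peak 148, chr3:124492563-124492592, minus strand: uuuggggagauGUGUGAGAagugccccacc
ITGB4 miR-342-3p peak 47, chr17:73732152-73732181, plus strand: ggccaguguguGUGUGAGccugguuggaca
LAMB2 miR-342-3p peak 36, chr3:49162270-49162299, minus strand: cggugccaacuGUGUGAGugcagugggaac
FN1 miR-342-3p peak 69, chr2:216292922-216292951, minus strand: ggagaguggaaGUGUGAGAggcacaccucu
ITGA3 miR-342-3p peak 37, chr17:48153972-48154001, plus strand: ccugacaacaaGUGUGAGAgcaacuugcag
They are shown because they lie under the highest scores among peaks with a site in each of these genes. The genes are examples, and all stretches shown hold GUGUGAG. Sites of other genes, such as UGUGAGA in LAMC1 under peaks of 50, are left out. The 7mers of ITGB1, ITGB5 and LAMB2 run on into ugc, and the reading frame there is UGU GAG UGC, with cysteine at both ends.

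The 6 miR-342-5p sites shown next are 7mers and 8mers in coding exons, under peaks with high scores.
MMP14 miR-342-5p peak 767, chr14:23310750-23310779, plus strand: cacacagcgcuCACCCCAgucacucucagc
BSG miR-342-5p peak 494, chr19:582312-582341, plus strand: acgccggcucuGCACCCCuguaaguuccag
CCN2 miR-342-5p peak 458, chr6:132270558-132270587, minus strand: cggccgaugcuGCACCCCccacagaaccac
LAMB3 miR-342-5p peak 274, chr1:209796478-209796507, minus strand: gcagauggcuuGCACCCCAauaucaugccc
ITGA3 miR-342-5p peak 156, chr17:48148695-48148724, plus strand: agcuucauccuGCACCCCAaaaacaucacc
PLOD3 miR-342-5p peak 148, chr7:100853630-100853659, minus strand: acggagcaccuGCACCCCgaccucuggcag
The letters around these sites differ from gene to gene. The run of C is part of every word searched for, so it is common to all of them by definition.

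Of the 49 genes, 26 had a miR-342-3p peak (53.1%, CI 39.4–66.3%) and 31 a miR-342-5p peak (63.3%, CI 49.3–75.3%). Over all 20163 protein-coding genes, 11.8% had a miR-342-3p peak and 11.8% a miR-342-5p peak. Peaks of both mimics were on 21 of the 49, against 4.06% of all genes, and a peak of either mimic was on 36 (73.5%), against 19.5%. Among genes with any peak, both mimics were present on 58.3% of the 36 and on 20.8% of all 3930. More than 1 peak was listed for miR-342-3p on 13 of the 26 (50%, against 28.8% of all genes with a peak of that mimic) and for miR-342-5p on 19 of the 31 (61.3%, against 39.1%). These shares are set side by side without a test, since the peak lists share controls and the genes were chosen by hand. The choice was made with earlier results of these data known, so the shares cannot be read as a trait of matrix genes. The genes also differ from others in length. Their median coding sequence has 3147 nt, against 1608 nt for genes with a peak and 1266 nt for all genes. How strongly each gene is expressed in these cells was not measured here, and its part in the number of peaks was not tested.

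Only miR-342-3p peaks were listed on COL7A1, ITGA2, ITGAV, ITGB1 and ITGB5, 4 of which are integrin chains. Only miR-342-5p peaks were listed on 10 genes, P4HA2, P4HB, PLOD1, LAMA5, HSPG2, CCN2, LTBP3, TIMP1, ITGA5 and BSG. The 13 genes without a peak were COL5A1, COL6A2, COL12A1, COL18A1, P4HA1, PLOD2, SERPINH1, FBN2, SPARC, LTBP1, TGFBI, TIMP2 and SDC4. All 8 integrin chains and all 5 laminin chains had a peak, as did 5 of 9 collagen chains, 6 of 9 processing genes, 8 of 12 other matrix proteins, 2 of 3 genes of proteolysis and 2 of 3 other surface receptors.

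**Figure D1:**
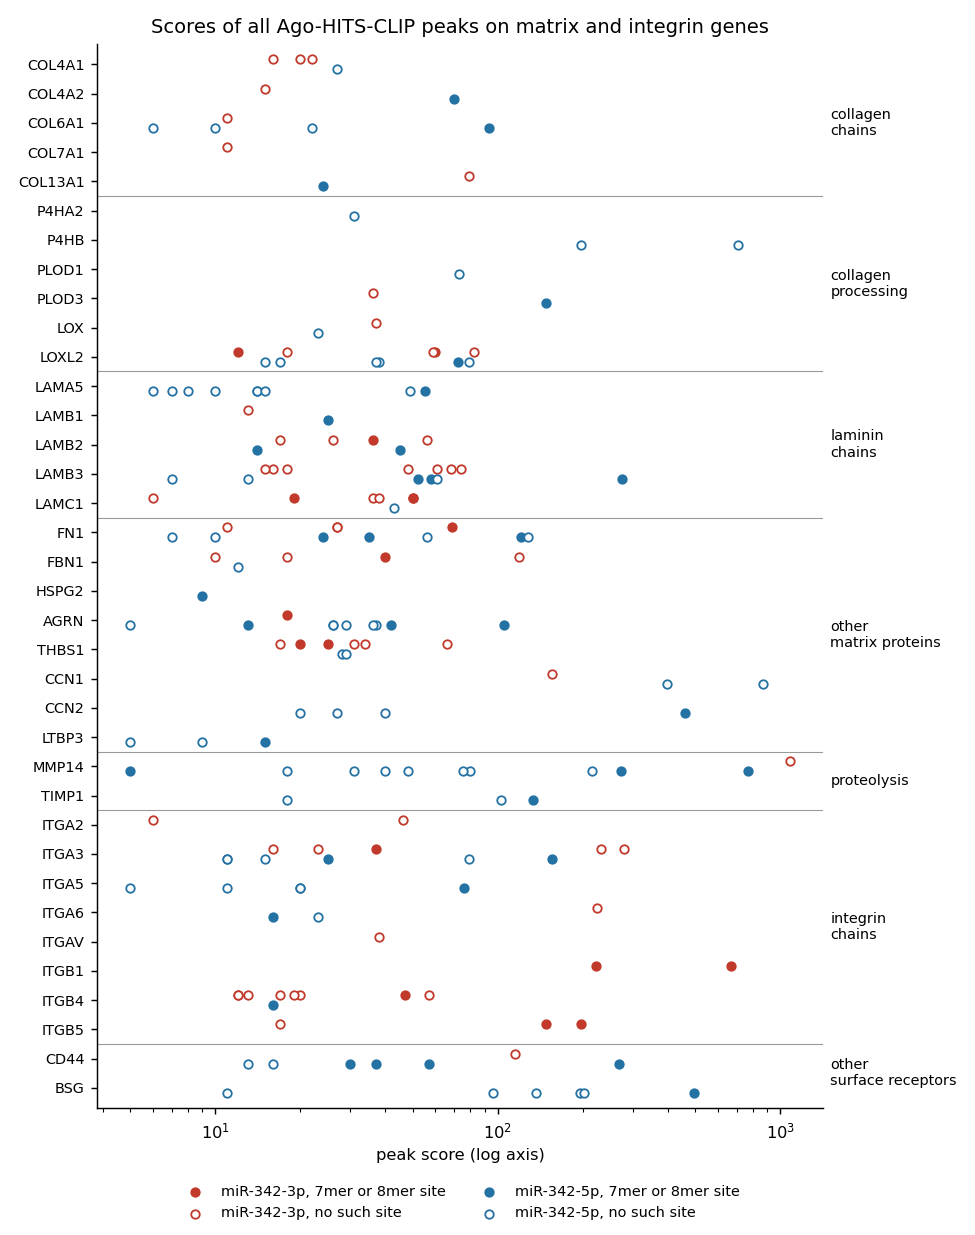
Scores of the 178 peaks on the 36 genes with a peak, with the score on a log axis and the genes ordered by role. Each circle is a peak of the merged libraries, red for miR-342-3p and blue for miR-342-5p, filled where a 7mer or 8mer site of that mimic lay within 50 nt of the summit. The highest circles are MMP14 at 1083 for miR-342-3p, which is open, and CCN1 at 867 for miR-342-5p, also open, while both ITGB1 peaks are filled.

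Median scores were 32.5 for the 72 miR-342-3p peaks, with a range of 6 to 1083, and 29.5 for the 106 miR-342-5p peaks, with a range of 5 to 867. Over the whole lists the medians were 24 and 19. A score of at least 100 was reached by 11 miR-342-3p peaks on 8 genes (15.3% of the peaks, against 10.9% of the list) and 21 miR-342-5p peaks on 12 genes (19.8%, against 7.25%). MMP14 had the ninth place in the miR-342-3p list, and CCN1 and MMP14 the seventh and the ninth in the miR-342-5p list.

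Integrin beta chains carried miR-342-3p peaks in coding exons, and the 4 highest of these had a site. ITGB1 encodes the beta chain with the most alpha partners. It had 2 peaks, with scores of 671 and 222, both in exon 13, over a 7mer and an 8mer. ITGB5, which pairs with the alpha V chain, had peaks of 197 over a 7mer in exon 10, 148 over an 8mer in exon 11 and 17 over a 6mer in exon 10. Both genes had 0 miR-342-5p peaks. ITGB4, the hemidesmosomal beta chain, had 8 miR-342-3p peaks with scores from 12 to 57, of which 2 (47 and 12) had a 7mer, and 1 miR-342-5p peak of 16 over a 7mer in the 3′UTR.

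The 8mers of ITGB1 and ITGB5 lie at matching places of the proteins. The first base of UGUGAG falls in codon 630 of ITGB1 and codon 625 of ITGB5, which a global protein alignment (BLOSUM62) paired, and both lie in exons of 223 nt. At the same aligned codon, ITGB3 has a 7mer (codon 624) but no peak. Of the 8 beta chain genes, ITGB1 to ITGB8, 7 hold at least 1 miR-342-3p site in the coding sequence, ITGB6 being the exception. Peaks at such sites were listed for ITGB1, ITGB4 and ITGB5. In every one of the 7 genes at least 1 site was read in the codon frame UGU GAG, cysteine followed by glutamate. The beta chains outside the list of 49 were looked at after the values of ITGB1 and ITGB5 were seen.

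Among integrin alpha chains, ITGA3 and ITGA6 alone had high scores for miR-342-3p, over windows without sites. ITGA3, a laminin-binding chain, had 5 miR-342-3p peaks. The highest, of 280 (exon 24) and 231, had neither a site nor a 6mer, and an 8mer lay under the peak of 37 in exon 14. The peak of 231 straddles the end of exon 1, with its summit in the exon and its midpoint in the intron. ITGA3 also had 6 miR-342-5p peaks, from 11 to 156, and the highest lay over an 8mer in exon 6. ITGA6, another laminin-binding chain, had a miR-342-3p peak of 224 in exon 22 with no seed site but an 8-nt match from base 3 of the mimic, and miR-342-5p peaks of 23 and 16, the latter over a 7mer. ITGA2, which binds collagen, had miR-342-3p peaks of 46 and 6, and ITGAV had 1 of 38 in its 3′UTR. ITGA5, the fibronectin-binding alpha chain, had miR-342-5p peaks alone, 5 with scores from 5 to 76, and 7mers lay under that of 76 and 1 of 20. In all, integrin chains held 22 miR-342-3p peaks on 7 of 8 chains and 14 miR-342-5p peaks on 4.

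Other surface receptors had their high scores for miR-342-5p. CD44, the hyaluronan receptor, had 6 miR-342-5p peaks in coding exons, and those of 268, 57, 37 and 30 each lay over a 7mer. Its only miR-342-3p peak scored 115, in the last exon at 95.4% of the coding sequence, and had no site. BSG encodes basigin, an inducer of matrix metalloproteinases. Its 6 miR-342-5p peaks scored 494, 201, 195, 136, 96 and 11, and the highest lay over a 7mer in exon 7, which has 25 nt. The other five lay in the 3′UTR, where 0 had a 7mer or 8mer and the peak of 201 had a 6mer. The 7mer of exon 7 is followed by uguaag, at an exon end.

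Proteolysis genes included the highest miR-342-3p score of the 49 genes. MMP14 is a membrane-bound collagenase that also activates other metalloproteinases. It had a single miR-342-3p peak, of 1083, in exon 10 at 94.2% of the coding sequence, without site or 6mer and with a longest match of 5 nt to the mimic. Of its 10 miR-342-5p peaks, the highest lay near the start. A peak of 767 had its summit at 10% of the coding sequence over a 7mer, and peaks of 273 and 216 followed at 22.2% and 21.7%. The 7mer counted for the peak of 273 lies in the intron before exon 4 and is absent from the spliced mRNA. TIMP1, a secreted metalloproteinase inhibitor, had miR-342-5p peaks of 133 over a 7mer in exon 2, 103 over a 6mer in exon 4, and 18 in the 5′UTR. The mRNA of TIMP2 holds 1 miR-342-5p site, and it had no peak.

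**Figure D2:**
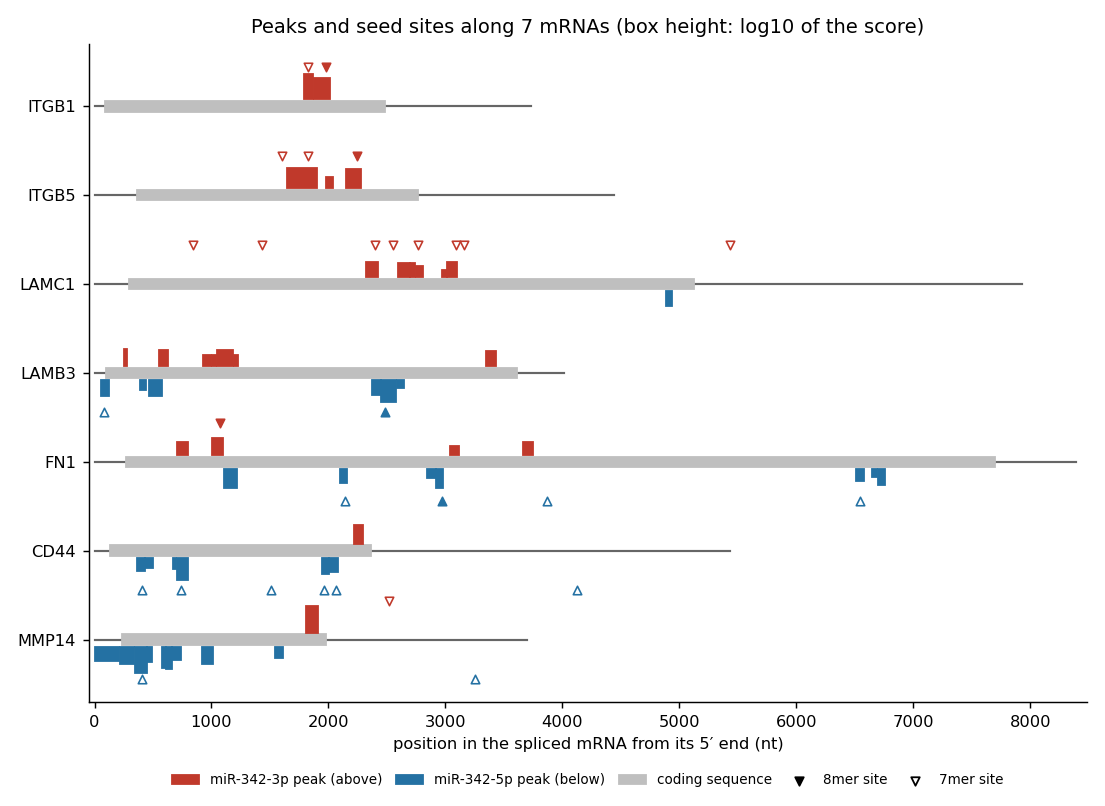
Peaks and seed sites along the spliced mRNAs of ITGB1, ITGB5, LAMC1, LAMB3, FN1, CD44 and MMP14, in nt from the 5′ end of the transcript. Grey boxes are coding sequences, red boxes above the line are miR-342-3p peaks and blue boxes below it miR-342-5p peaks, with a height that grows with log10 of the score. Filled triangles are 8mers and open triangles 7mers of the mimic. Both red peaks of ITGB1 and 2 of the 3 of ITGB5 sit at sites, in MMP14 the single red peak has none, and 7 of the 8 miR-342-3p sites of LAMC1 lie in the coding sequence with peaks at 3.

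Laminin chains held 18 miR-342-3p and 19 miR-342-5p peaks. In LAMB3, a beta chain of epithelial laminin, there were 7 miR-342-3p peaks (15 to 74, with 0 sites and 3 6mers) and 6 miR-342-5p peaks, the highest of 274 over an 8mer in exon 17. The miR-342-5p peak of 58 lay over a 7mer in the 5′UTR. The 7mer counted for the peak of 52 lies in the intron after exon 16, and along the spliced mRNA the site within 50 nt of that summit is the 8mer of exon 17. LAMC1, the common gamma chain, had 6 miR-342-3p peaks from 6 to 50, and 7mers lay under both peaks of 50 and the peak of 19. It had 1 miR-342-5p peak, of 43, without a site. LAMB2 had miR-342-3p peaks of 56, 36, 26 and 17, with a 7mer under that of 36, and miR-342-5p peaks of 45 and 14, both over 7mers. LAMB1 had 1 peak of each mimic, of 13 without a miR-342-3p site and of 25 over a miR-342-5p 8mer. LAMA5, a long alpha chain, had 9 miR-342-5p peaks with scores from 6 to 55, and a 7mer lay under the highest. So in laminins the miR-342-3p sites were 7mers under scores of 50 or lower, and miR-342-5p 8mers lay at summits in LAMB1 and LAMB3.

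Among other matrix proteins, the matricellular CCN1 and CCN2, secreted proteins that bind integrins, had the highest scores. CCN1 had miR-342-5p peaks of 867 and 396. The first straddles the end of exon 1, with its summit in the exon, and the second lies in the 5′UTR over a 6mer. Its miR-342-3p peak scored 155, over a 6mer in exon 4. CCN2 had 4 miR-342-5p peaks, of 458, 40, 27 and 20, and the highest lay over a 7mer in the last exon. Neither CCN1 peak of miR-342-5p had a 7mer or 8mer, while the top peak of CCN2 did.

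FN1, a glycoprotein that integrins assemble into fibrils, had 4 miR-342-3p peaks (69, 27, 27 and 11), the highest over the single miR-342-3p site of its mRNA, an 8mer in exon 6. Of its 7 miR-342-5p peaks, from 7 to 128, that of 121 lay over an 8mer and those of 35 and 24 over 7mers. FBN1, a microfibril protein, holds 11 miR-342-3p sites in its mRNA and had a summit within 50 nt of 1 of them, a 7mer 46 nt from the summit of a peak of 40. Measured along the spliced mRNA, the peak of 18 also had a site. Its highest miR-342-3p peak, of 119, had no site within 50 nt, and the lowest scored 10. Its miR-342-5p peak scored 12. FBN2 also holds 11 miR-342-3p sites, 2 of them 8mers, and had 0 peaks of either mimic.

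The remaining matrix proteins had lower scores. THBS1, thrombospondin, had 6 miR-342-3p peaks from 17 to 66, and peaks of 25 and 20 share the same 8mer in exon 12. Its miR-342-5p peaks scored 29 and 28. AGRN, a heparan sulfate proteoglycan of basement membranes, had 9 miR-342-5p peaks from 5 to 105, 4 of them over a site and the highest over a 7mer in exon 2, and 1 miR-342-3p peak of 18 over a 7mer. LTBP3, which binds latent TGF-beta, had miR-342-5p peaks of 15, 9 and 5, the first over an 8mer. HSPG2, perlecan, had a miR-342-5p peak of 9 in its 3′UTR with a 7mer 40 nt away. In AGRN and LTBP3 the highest miR-342-5p peak was thus over a site.

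Collagen chains had few peaks, and none of their miR-342-3p peaks had a site in the genomic window. COL4A1 and COL4A2, the main chains of basement membrane collagen, had miR-342-3p peaks of 22, 20 and 16 in COL4A1 and 15 in COL4A2, all in coding exons. Along the spliced mRNA, the COL4A1 peak of 22 had a site. COL4A2 had a miR-342-5p peak of 70 over a 7mer in its 3′UTR, and COL4A1 had 1 of 27 without a site. COL6A1 had miR-342-5p peaks of 93, 22, 10 and 6, the highest over a 7mer in exon 26, and a miR-342-3p peak of 11 in its 3′UTR. COL13A1, a membrane-bound collagen, had a miR-342-3p peak of 79 in the 3′UTR and an intronic miR-342-5p peak of 24 over a 7mer, and COL7A1 had a miR-342-3p peak of 11.

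Collagen processing genes had their high scores for miR-342-5p. P4HB encodes protein disulfide isomerase, the beta subunit of prolyl 4-hydroxylase. It had miR-342-5p peaks of 710 in the 3′UTR, over a 6mer, and 197 in exon 7, without a site. PLOD3, a lysyl hydroxylase, had a miR-342-5p peak of 148 over a 7mer in exon 14 and a miR-342-3p peak of 36. PLOD1 had a miR-342-5p peak of 73 and P4HA2 of 31, neither with a site. LOX and LOXL2 encode lysyl oxidases. LOX had a miR-342-3p peak of 37 and a miR-342-5p peak of 23, both in coding exons. LOXL2 had 5 miR-342-3p peaks (82, 60, 59, 18 and 12), with 8mers under those of 60 and 12, and 6 miR-342-5p peaks from 15 to 79, with an 8mer under that of 72. The LOXL2 peak of 12 is intronic, with 3 sites. Among miR-342-3p peaks on the 49 genes, only its window held a run of 12 or more strictly alternating G and U. This was 1.39% of the peaks, against 10.3% of the list. The miR-342-5p list had such runs at 0.0998% of its summits and at 0 of those on the 49 genes.

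Location was then compared between the mimics. Coding exons held 65 of 72 miR-342-3p peaks (90.3%, CI 81.3–95.2%) and 83 of 106 miR-342-5p peaks (78.3%, CI 69.5–85.1%). The difference, miR-342-5p minus miR-342-3p, was -12 points of percent, with p = 0.042 in Fisher's exact test (two-sided). It did not pass after Benjamini-Hochberg adjustment over the 5 exact tests of these peaks (adjusted p = 0.07), and the same exact test gave p = 0.32 with the highest peak of each gene or with neighbouring peaks joined. In the whole lists, the shares in coding exons were 55.1% and 69.6%, so that the order of the mimics on these genes was the opposite of that over all peaks, a contrast that was not tested. The 49 genes have a median coding sequence of 3147 nt and a median mRNA of 4833 nt. For all genes with a peak these medians are 1608 and 3825.5 nt. The part of these lengths in where peaks lay was not tested.

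In 3′UTRs there were 3 peaks of miR-342-3p (4.17%, CI 1.43–11.5%), in COL6A1, COL13A1 and ITGAV, and 10 of miR-342-5p (9.43%, CI 5.21–16.5%) on 6 genes, 5 of these peaks in BSG. By the same exact test, the difference of 5.27 points did not pass (p = 0.25, adjusted p = 0.25). Over the lists, 34.2% and 17.8% of peaks were in 3′UTRs. None of the 3 miR-342-3p peaks in 3′UTRs had a site, and 3 of 10 miR-342-5p peaks did. The 5′UTRs held 1 miR-342-3p peak and 8 miR-342-5p peaks (1.39% and 7.55%, against 2.87% and 3.69% of the lists), and introns 3 and 5 (4.17% and 4.72%, against 3.65% and 4.77%). In 5 cases the midpoint and the summit lay in different classes, and for ITGA3 (231), CCN1 (867), MMP14 (48) and LOXL2 (18) the midpoint was intronic and the summit in a coding exon.

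**Figure D3:**
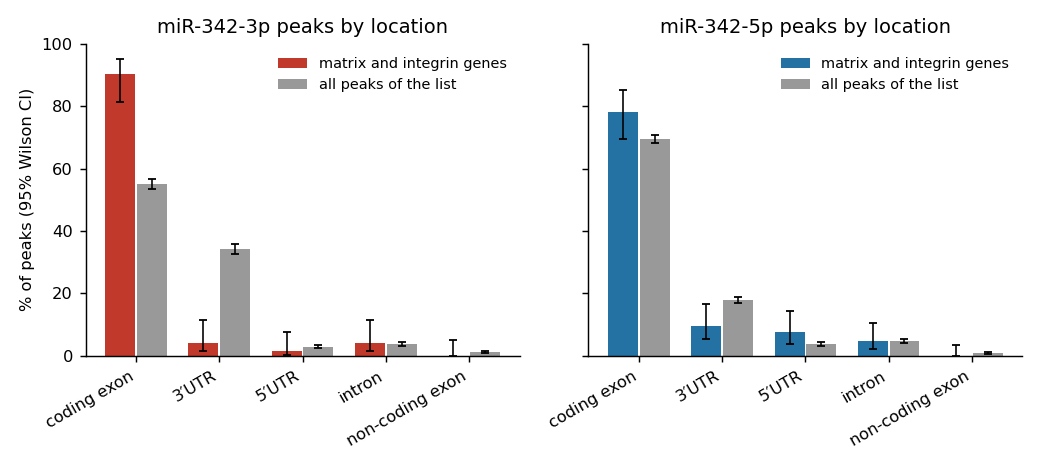
Share of peaks by location of the midpoint, for miR-342-3p (left) and miR-342-5p (right). Coloured bars are the 72 and 106 peaks on the 49 genes, grey bars all 3450 and 5010 peaks, and error bars 95% Wilson intervals on numbers of peaks. Coding exons held 90.3% and 78.3% of the peaks on these genes, and 3′UTRs 4.17% and 9.43%.

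Seed sites lay on the strand of the peak. A miR-342-3p 7mer or 8mer was within 50 nt of 18 of 72 miR-342-3p summits (25%, CI 16.4–36.1%), against 0 of 72 when those windows were read on the other strand (CI up to 5.07%, exact McNemar test, two-sided, p = 7.6e-06, adjusted p = 1.9e-05). Of miR-342-5p summits, 37 of 106 had a miR-342-5p site (34.9%, CI 26.5–44.4%) and 2 (1.89%) had one on the opposite strand (same exact test, p = 5.5e-10, adjusted p = 2.7e-09). The strands of a coding exon differ in codons and bases, so these tests cannot tell seed binding from coding sequence. Over all peaks of the lists, 20.6% and 33% had a site, and 0.638% and 1.46% had one on the opposite strand. The difference between the mimics, 9.91 points, did not pass (Fisher's exact test, p = 0.19, adjusted p = 0.24), but with only the highest peak of each gene it was 42.1 (p = 0.0027), as 19 of 31 genes had a site under their highest miR-342-5p peak and 5 of 26 under their highest miR-342-3p peak. For these 26 miR-342-3p peaks, the test against the opposite strand could not pass. With 5 peaks with a site against 0, p = 0.062 is the lowest that the exact McNemar test can give.

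Each list had 8 such peaks with an 8mer (11.1% of the miR-342-3p peaks, 7.55% of the miR-342-5p peaks, against 8.26% and 9.02% of the lists), and a 7mer without an 8mer was at 10 miR-342-3p and 29 miR-342-5p summits. Sites were near the summit, with the centre within 10 nt for 12 of 18 and 29 of 37 peaks with a site. Neither site nor 6mer was found for miR-342-3p at 47 summits (65.3%, CI 53.8–75.2%) and for miR-342-5p at 58 (54.7%, CI 45.2–63.9%), against 76.2% and 51% of the lists. In coding exons alone, 26.2% of miR-342-3p peaks and 36.1% of miR-342-5p peaks on these genes had a site, against 16.3% and 27.4% of all coding exon peaks of the lists. With windows taken along the spliced mRNA, a site was at 21 summits of miR-342-3p (29.2%) and 37 of miR-342-5p (34.9%), those gained being COL4A1 (22), FBN1 (18) and ITGB4 (12) for miR-342-3p and COL6A1 (22) for miR-342-5p, while that of MMP14 (273) was lost. A site of the other mimic lay at 2 miR-342-3p summits and 1 miR-342-5p summit.

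**Figure D4:**
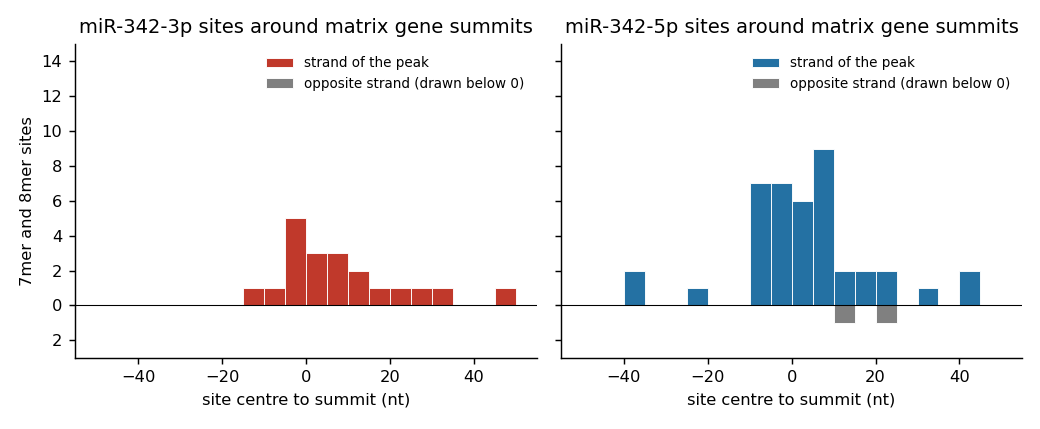
Distance from the summit to the centre of each 7mer and 8mer site, in bins of 5 nt, for peaks on the 49 genes. Coloured bars count sites on the strand of the peak, with every site of a window counted, and grey bars below 0 count sites on the opposite strand. The sites gather at the summit, and the opposite strand has 0 miR-342-3p sites.

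Some of the peaks without a site in the window held a shifted match, which starts at base 3 of miR-342-3p in place of base 2.
ITGA6 miR-342-3p peak 224, chr2:173355958-173355987, plus strand: gugaacgugaaCUGUGUGAacaucagaugc
ITGA2 miR-342-3p peak 46, chr5:52344492-52344521, plus strand: uguugugguugUGUGUGAugaaucaaauag
PLOD3 miR-342-3p peak 36, chr7:100852177-100852206, minus strand: gucagaacaaaUGUGUGAugagcugguggc
FBN1 miR-342-3p peak 10, chr15:48725123-48725152, minus strand: gugccuuccgaUGUGUGAacacuuaugggu
The capitals mark the longest run that can pair with the mimic. GUGUGA, which pairs with bases 3 to 8, was in 11 of the 47 miR-342-3p windows without site or 6mer (23.4%, CI 13.6–37.2%) and in 0 of 47 on the opposite strand. Over the whole list these shares were 20.5% and 1.45%. The corresponding word for miR-342-5p, GCACCC, was in 7 of 58 windows (12.1%), in AGRN, LAMA5, LAMC1 and MMP14 among others, and in 1 (1.72%) on the opposite strand. This match was searched after the windows had been seen. The best predicted pairing with miR-342-3p (RNAduplex) had a median energy of -15.2 kcal/mol in the 47 windows and -11.2 on their opposite strand. That with miR-342-5p had -16.8 in the 58 windows and -16 opposite. With the other mimic in place of the own one, the medians were -14.7 in the 47 windows and -12.65 in the 58. So in the 47 windows the energies with the 2 mimics were close.

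Coding sequences of the 49 genes hold miR-342-3p sites mostly in 1 reading frame. Of the 69 sites in their coding sequences, 62 (89.9%, CI 80.5–95%) are read as UGU GAG, cysteine and glutamate, against 64.3% of 4583 sites in all coding sequences. FBN1 holds 10 of these in-frame sites, FBN2 9, LAMC1 and HSPG2 6 each and AGRN 5. Of the 16 sites with a summit within 50 nt in the genome, 14 were in this frame. So were 48 of the 53 without one, so that the frame was as common at sites without a peak. The miR-342-5p core was at the first codon position in 27 of 58 coding sites (46.6%, CI 34.3–59.2%), against 32.3% of 6710 in all coding sequences, and in 12 of the 30 with a summit (40%).

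Most sites in the 49 mRNAs carried no peak. A summit lay within 50 nt of 16 of 79 miR-342-3p sites (20.3%) and 34 of 74 miR-342-5p sites (45.9%). Distances here were measured in the genome. A site that nears a summit only across an exon junction, as in COL4A1, was not counted. Over the mRNAs of all protein-coding genes, the shares were lower, 5.68% and 11.1%. In the mRNAs of the genes with a peak of the mimic, 16 of 45 miR-342-3p sites (35.6%, CI 23.2–50.2%) and 34 of 58 miR-342-5p sites (58.6%, CI 45.8–70.4%) had a summit within 50 nt, against 28.5% and 46.5% over all genes with a peak. By region, miR-342-3p summits were at 16 of 40 coding sites and 0 of 5 sites in 3′UTRs, and miR-342-5p summits at 30 of 47 and 3 of 10. Over all genes with a peak, the shares were 33.3% in coding exons and 24.2% in 3′UTRs for miR-342-3p, with 55.4% and 31.6% for miR-342-5p, so coding sites had summits more often there too. Of all 8mers in the 49 mRNAs, 6 of 11 for miR-342-3p and 7 of 13 for miR-342-5p had a summit. The share of 8mers over all genes is not given here for comparison. A site was thus present without a peak in the mRNAs of 12 of the 23 genes without a miR-342-3p peak and 8 of the 18 without a miR-342-5p peak.

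On the 21 genes with peaks of both mimics, 4 miR-342-3p peaks overlapped a miR-342-5p peak by at least 1 nt, in ITGA3 (scores of 16 and 11, 42 nt), LAMB3 (61 and 61, 24 nt) and LOXL2 (18 and 82 with the same miR-342-5p peak of 17). None of these had a site of either mimic within 50 nt of the summit. Overlaps over the whole lists are not given here, so whether 4 is many or few cannot be said. In MMP14 the high peaks lay at opposite ends of the coding sequence, the miR-342-3p peak at 94.2% and the miR-342-5p peak at 10%. In ITGA3 the highest lay at 94.7% and 24.9%.

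In a wider list of 100 other matrix and adhesion genes, 78 had no peak. Of the 100, 16 had a miR-342-3p peak, 13 a miR-342-5p peak and 7 both, beside 11.8%, 11.8% and 4.06% of all genes, with 50 and 42 peaks, of which 39 and 33 lay in coding exons. PLAU, the urokinase protease, had a miR-342-3p peak of 338 over a site in its 3′UTR and a highest miR-342-5p peak of 264. TIMP3, another metalloproteinase inhibitor, had a highest miR-342-3p score of 129 and a highest miR-342-5p score of 155. PXN, which encodes the adhesion adaptor paxillin, had a miR-342-3p peak of 553, and the highest miR-342-3p scores of TNC (tenascin C) and ADAMTS1 were 176 and 108. This list too was drawn up with results of these data known.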

How the data were processed

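The authors made Ago-HITS-CLIP libraries, trimmed reads with cutadapt 1.13, mapped them to hg19 with TopHat2 2.0.13 and called peaks with MACS2 2.1.1.20160309; UMI-tools is also named in the submitters' processing notes. They deposited 2 peak lists with a score for each peak, described as reads above background. The scaling of the libraries is not given in the sources used here.

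Starts were read as 0-based and are printed 1-based. Peaks were placed by midpoint on GENCODE release 44 mapped to GRCh37, and where transcripts differed a 3′UTR took precedence, followed by coding exons, then 5′UTRs, other exons and introns. Exon numbers and mRNA sites follow the canonical transcript. Location and sites were compared between mimics by Fisher's exact tests and between strands by exact McNemar tests, 5 tests in all, with Benjamini-Hochberg adjustment. Tools were Python 3.11.15, pandas 2.3.3, scipy 1.17.1, pysam 0.24.0, RNAduplex 2.7.2 and matplotlib 3.10.9. In simulated data, 1000 of 1000 planted sites were found and 490 of 490 positions placed.

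Every gene of the list was accounted for by its number of peaks. Values were given for genes with a site at a summit, a highest score of at least 50 or peaks of both mimics, the 5 highest peaks per list, and, of the other matrix genes, those with a score of at least 100, except a result that is not reported here. The genes and lists were chosen with earlier results of these data known.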

Additional observations from a re-analysis of the deposited data

How the results depend on the processing

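Scores above 50 left 15 genes with a miR-342-3p peak, 18 with a miR-342-5p peak and 7 with both, 22 and 37 peaks, and 1 overlap between mimics. Overlaps numbered 1 with midpoints within 25 nt and 2 with at least 0.5 of the shorter peak shared. In Fisher's exact test, the difference in coding exons between the mimics no longer passed with scores of at least 10 (-11.3, p = 0.059), scores above 50 (-17.9, p = 0.18), the highest peak of each gene (-11, p = 0.32) or neighbouring peaks joined (-6.83, p = 0.32). In the exact McNemar test, own over opposite strand no longer passed for miR-342-3p with the highest peak of each gene (19.2 percentage points, p = 0.062) or for miR-342-5p with 8mers alone (5.66, p = 0.11). The former had too few peaks with a site for that test to pass. In Fisher's exact test, the difference in sites between the mimics reversed with 8mers alone (-3.56, p = 0.43) and passed with the highest peak of each gene (42.1, p = 0.0027) or joined peaks (19.9, p = 0.021). Apart from the smaller number of peaks or shorter list of words in these settings, the cause was not tested. Windows of 25 nt, the whole peak, 6mers, spliced windows, placement by the summit and coding exons before 3′UTRs moved no result across its threshold. Joining peaks no more than 10 nt apart, spliced windows and the match to bases 3 to 8 were chosen after the data had been seen. No paired analysis was possible because the lists merge the replicates, and for the same reason no replicate could be left out. Depth per library and expression of the genes are unknown here, so a gene without a peak cannot be called unbound.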
